A study of Mus musculus with 9 samples.

Results

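The m6A readers described here are 10 mouse genes, chosen by name but with earlier results of these data known: Ythdf1, Ythdf2, Ythdf3, Ythdc1, Ythdc2, Hnrnpa2b1, Hnrnpc, Elavl1, Fmr1 and Fxr1. All 10 were listed among the 18049 genes of the deposited table, and all 10 passed the filter on low values. They were measured by bulk RNA-sequencing of stranded mRNA libraries in 9 clones of primary cells from pancreatic tumors of WTg mice. WTg mice carry the transgenes EL1-Luc/EL1-Tag and CAG-Mettl3, so that every clone shares both. The elastase I promoter (EL1) drives luciferase or the SV40 large T antigen, and the ubiquitous CAG promoter drives Mettl3, the catalytic subunit of the m6A methyltransferase. Clones were colonies isolated with cloning cylinders from plated tumor tissue. The number of mice behind them was not given in the sources used here, so the p-values below measure only the spread between clones. No clones without the Mettl3 transgene and no ages were given in the labels. The labels state no treatment, although a protocol field names 80 nM NMS-P937, a PLK1 inhibitor, for 24 h.

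N6-methyladenosine (m6A) is the most common internal modification of mRNA. A methyltransferase complex writes it, demethylases remove it, and reader proteins that bind methylated RNA decide splicing, export, translation or decay. YTH domain proteins hold the methyl group directly in an aromatic pocket, whereas several HNRNP proteins bind sites that m6A opens by loosening RNA structure, and the other readers prefer methylated RNA by less direct contacts. The study asked which RNA-binding proteins might act on the mRNA of PLK1, a mitotic kinase, downstream of METTL3, and Elavl1 and Fmr1 were among its candidates. Of the candidates, it considered IGF2BP2, whose gene is not in the list above, the likeliest reader. It reported that demethylating the PLK1 mRNA reduced the binding of IGF2BP2 to it.

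The 9 clones belonged to a single group, and their column names fall into 3 sets by prefix, whose meaning the labels do not give. They are called prefix A (1 library, A), prefix B (4 libraries, B1 to B4) and prefix C (4 libraries, C1 to C4) here. Depth was 12198037 reads in library A and between 16526371 and 20453901 reads in the others. Levels are normalized counts, that is, reads scaled by 1 factor per library, and 1 read was worth 1.26 to 2.19 of them. The floor of 3 reads corresponded to 3.79 to 6.56 normalized counts, far under the level of every reader. Xist was between 29664 and 32912 normalized counts in the prefix B libraries and at most 8.39 in the others. Ddx3y, a Y-linked gene, was at 0 in prefix B, at 2444 in A and at 2376 to 2720 in prefix C. Prefix B and the sex of the mice thus cannot be told apart, whereas A and prefix C were alike in both genes. The labels call the cells fibroblasts, and 13 of 14 fibroblast markers were above the floor in all libraries, with a summed level of 369380 to 1011078 normalized counts. All 12 macrophage markers were also above the floor in all libraries, with sums of 549554 to 864986. Of 7 epithelial markers, 6 were listed and 3 (Cdh1, Krt19 and Muc1) were above the floor in all libraries, with sums of 27.5 to 199, while Epcam was at 0 in every library. In such bulk samples, fewer cells of a type and less RNA per cell cannot be told apart.

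Most readers varied little between clones, and Fmr1 stood apart in a single library. The coefficient of variation (CV, the SD over the mean) ran from 4.03% for Fxr1 to 12.6% for Ythdc2, and was 37.0% for Fmr1. The median over the 10 readers was 8.29%, compared with 17.1% over the 14705 genes whose mean reached 10 normalized counts. Of the 10 readers, 9 lay below that median of all genes. The comparison was not matched for level, and counting error alone gives higher CVs to genes with few reads. By mean level the readers lay from the 52.2 percentile of all genes (Ythdc2) to the 98.7 percentile (Hnrnpa2b1). Whether the CVs of the readers are low for genes of their level was therefore not tested. Counting error alone would give CVs of 3.12% for Ythdf1 and 6.40% for Ythdc2, both below the observed CVs.

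**Figure D1:**
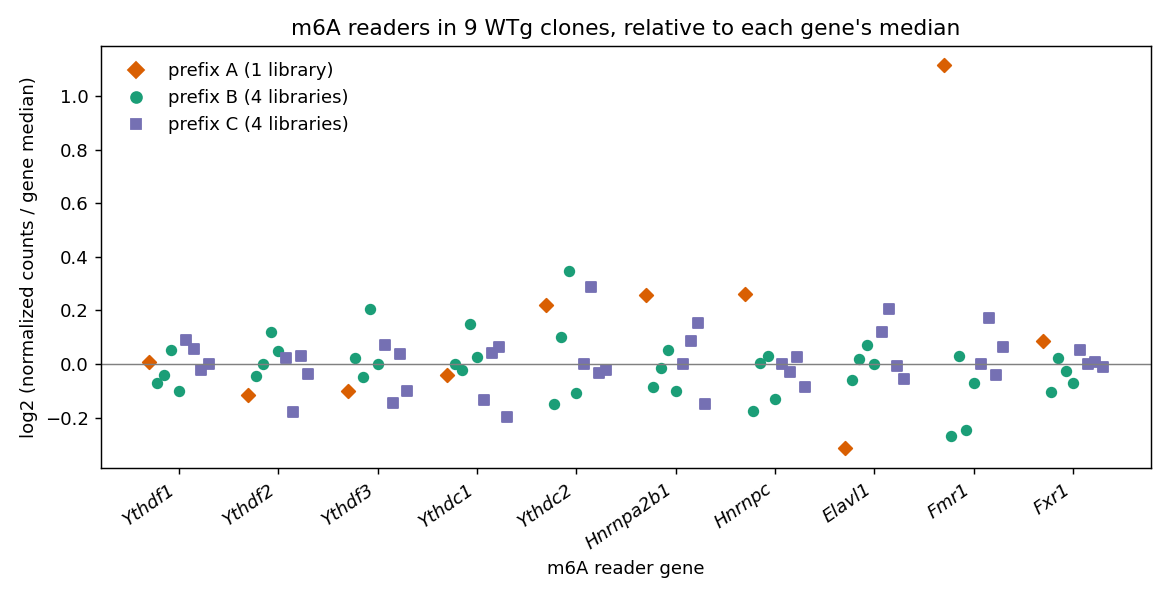
Level of each m6A reader (x axis) in each of the 9 libraries, as log2 of the normalized counts over that gene's median (y axis), with 1 point per library coloured by column-name prefix. The Fmr1 point of library A is the only one more than 1 log2 unit from the median, and the points of prefixes B and C overlap for all 10 genes.

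Ythdf1, Ythdf2 and Ythdf3 encode the cytoplasmic YTHDF paralogs, which bind m6A in mRNA and are linked to decay and translation of their targets. Ythdf1 (ENSMUSG00000038848, GRCm38 chromosome 2, 180904377 to 180920936) was between 1421 in B4 and 1621 in C1, with a median of 1524 normalized counts and a mean of 1521 ± 65.6 (SD, n = 9). Its CV of 4.31% was the lowest of the YTH genes, and no library stood apart.

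Ythdf2 (ENSMUSG00000040025, chromosome 4, 132184916 to 132212256), whose product recruits the CCR4-NOT deadenylase, was at 1241 normalized counts in A, at 1303, 1343, 1457 and 1388 in B1 to B4, and at 1362, 1185, 1369.6 and 1310.0 in C1 to C4. Ythdf3 (ENSMUSG00000047213, chromosome 3, 16183148 to 16217037) was at 2543 normalized counts in A, at 2775, 2637, 3144 and 2730.4 in B1 to B4, and at 2865, 2466, 2804 and 2548 in C1 to C4. Both genes were highest in B3 and lowest in C2. These are also the libraries with the lowest and the highest summed fibroblast markers, 369380 in B3 and 1011078 in C2, and the part of the cell mixture in the Ythdf2 and Ythdf3 levels was not tested. As a share of the reads on the 3 genes, Ythdf3 held 48.8% ± 1.28, Ythdf1 27.3% ± 1.58 and Ythdf2 23.8% ± 0.753 (SD, n = 9). These are shares of reads and not of molecules, since they are not corrected for transcript length, and the SDs show that the balance of the paralogs moved by little between clones.

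Ythdc1 encodes the nuclear YTH reader, which acts on splicing and export, and Ythdc2 encodes an RNA helicase with a YTH domain that is best known from meiosis. Ythdc1 (ENSMUSG00000035851, chromosome 5, 86803980 to 86836659) was between 1339.5 in C4 and 1702 in B3, with a median of 1535 normalized counts and a mean of 1524 ± 108 (SD, n = 9). Ythdc2 (ENSMUSG00000034653, chromosome 18, 44827730 to 44889720) was between 312 in B1 and 439.9 in B3, with a median of 345 normalized counts and a mean of 365 ± 45.9 (SD, n = 9). B3 was thus highest for both nuclear and cytoplasmic members of the YTH family, with Ythdf2, Ythdf3, Ythdc1 and Ythdc2 at their maximum there. B3 was highest for 17.9% of all genes.

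Hnrnpa2b1 and Hnrnpc encode abundant nuclear RNA-binding proteins, of which the first has been linked to m6A in primary microRNA processing and the second binds uridine tracts laid open by m6A. Hnrnpa2b1 (ENSMUSG00000004980, chromosome 6, 51460434 to 51470048) was at 15174 normalized counts in A, at 11976, 12551, 13157 and 11838 in B1 to B4, and at 12695, 13478, 14115 and 11446 in C1 to C4. Hnrnpc (ENSMUSG00000060373, chromosome 14, 52073377 to 52104039) was at 4659 normalized counts in A, at 3449.6, 3896, 3968 and 3552 in B1 to B4, and at 3891, 3809, 3962 and 3666 in C1 to C4. Library A was the highest for both, by 0.26 for Hnrnpa2b1 and 0.31 for Hnrnpc on the log2 scale over the mean of the other 8 libraries. Shifts upwards of that size or more were seen for 25.3% and 22.3% of the 14705 genes, so they were common in this library.

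Elavl1 encodes HuR, which binds AU-rich elements and stabilises mRNA. Elavl1 (ENSMUSG00000040028, chromosome 8, 4284781 to 4325140) was at 1208 normalized counts in A, at 1443, 1522, 1580.0 and 1503 in B1 to B4, and at 1634, 1733, 1497 and 1446 in C1 to C4. Library A was the lowest, with a log2 difference of -0.35 from the mean of the others, and 22.1% of genes were shifted downwards as far in it. Elavl1 was the only reader with its minimum in A, whereas 4 readers (Hnrnpa2b1, Hnrnpc, Fmr1 and Fxr1) had their maximum there. Of all genes, 19.9% had their maximum and 20.4% their minimum in A.

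Fmr1 encodes FMRP, the RNA-binding repressor of translation that is lost in fragile X syndrome, and Fxr1 and Fxr2 encode its autosomal paralogs. Fmr1 (ENSMUSG00000000838, chromosome X, 68678536 to 68717963) was at 3092 normalized counts in A, at 1183, 1455, 1202 and 1358 in B1 to B4, and at 1427, 1606, 1385 and 1490.1 in C1 to C4. Library A held 1413 reads of Fmr1, which gives a 95% Wilson interval of 2935 to 3258 normalized counts, covering counting error only. That was 2.23 times the mean over B1 to C4, which was 1388 ± 142 (SD, n = 8) with a CV of 10.2%. A shift upwards of that size or more in A was seen for 3.43% of genes.

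Fxr1 (ENSMUSG00000027680, chromosome 3, 34020058 to 34069980) was shifted by far less in A. It was at 2276 normalized counts in A, at 1994, 2177, 2104 and 2040.3 in B1 to B4, and at 2221, 2145, 2154 and 2128 in C1 to C4, with a mean of 2138 ± 86.1 (SD, n = 9). Fxr2, the paralog outside the 10 genes, was at 2304 normalized counts in A, at 2157, 2347, 2261 and 2419 in B1 to B4, and at 2384, 2109, 2426 and 2198 in C1 to C4. The ratio of Fmr1 to Fxr1 was 1.36 in A and 0.654 ± 0.0563 (SD, n = 8) in the others, where it ran from 0.571 to 0.749. The ratio of Fxr1 to Fxr2 was 0.935 ± 0.0517 over all 9 clones, without A standing apart. Fxr1, too, was highest in A, but by 0.10 on the log2 scale over the mean of the others, compared with 1.16 for Fmr1. Library A is a single clone with the lowest depth and no other library of its prefix, so a feature of this clone and a feature of its prefix cannot be told apart.

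**Figure D2:**
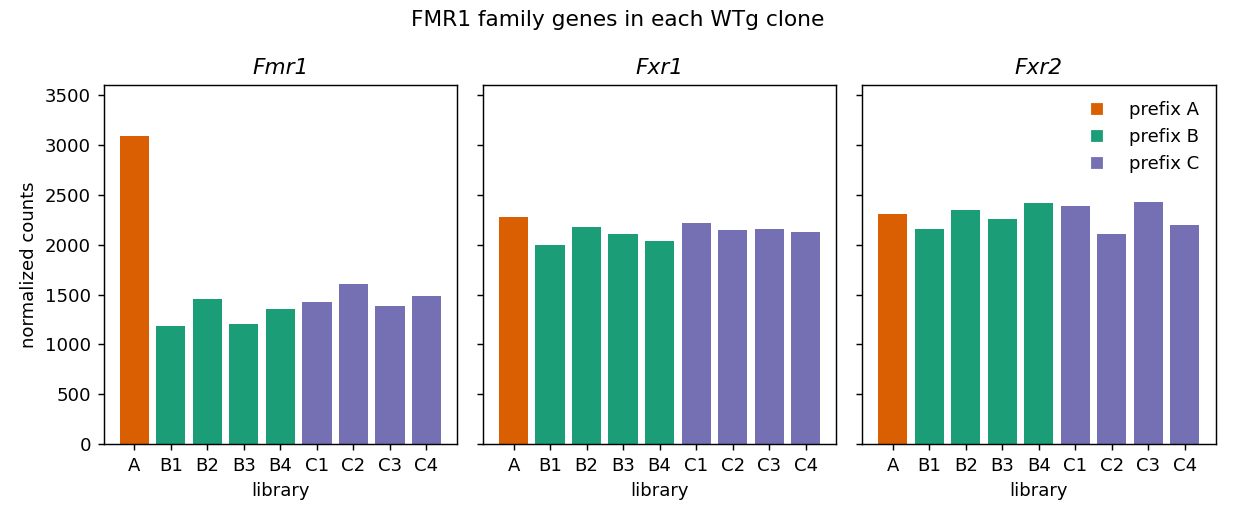
Normalized counts (y axis, from 0) of Fmr1, Fxr1 and Fxr2 in each of the 9 libraries (x axis), 1 bar per library coloured by column-name prefix. Fmr1 stands at 3092 in library A against 1183 to 1606 in the others, while the Fxr1 and Fxr2 bars of A lie close to those of the other libraries.

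Promoter sequences, from 250 bases before to 50 bases after a start site, were read from RefSeq (GRCm38.p6) and were held for 8 of the 10 genes, in 10 windows. Ythdf3 and Ythdc2 were not among them. The windows held 22 to 43 CpG dinucleotides, compared with a median of 7 over 32851 mouse promoters. Among those promoters they lay from the 76.9 percentile (Hnrnpc) to the 97.4 percentile (Fxr1). The motifs searched on both strands, chosen after the sequences had been seen, were the palindrome of nuclear respiratory factor 1 (its letters are the capitals of the Fmr1 stretch shown here), the E-box CACGTG, the GC box GGGCGG and the CCAAT box CCAAT. The palindrome was found in 0.971% of all promoters and, of the 8 genes, in Fmr1. The E-box was found in 7.15% of all promoters and in Fmr1 and Ythdf1, the GC box in 35.7% and in 5 of the 8 genes, and the CCAAT box in 37.4% and in Ythdf1, Hnrnpa2b1, Hnrnpc and Elavl1. Stretches of 30 bases upstream of the start are shown for Fmr1, which stood apart, for Ythdf1, which shared the E-box and the GC box with it, and for Hnrnpc, which carried only the CCAAT box of the motifs searched, with the motif in capitals and the strand after the position.
Fmr1 chrX:68678438-68678467 plus strand: acccaggaggGCGCATGCGCgtgctccact
Ythdf1 chr2:180921087-180921116 minus strand: ccccaggagcccCACGTGactctcgagtcg
Hnrnpc chr14:52104058-52104087 minus strand: gaaaagtcacagCCAATaggaacgcctcca
A match describes the letters of a window and is not a binding site.

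Relations between readers of the same family were then examined across the 9 clones, in 6 pairs, with exact two-sided permutation tests and Benjamini-Hochberg adjustment over the 6. Ythdf2 and Ythdf3 moved together, with Pearson's r = 0.864 (exact p = 0.0029, adjusted p = 0.0088) and Spearman's rho = 0.80 (exact p = 0.014, adjusted p = 0.052). Leaving out the 2 clones most distant from the Ythdf2 median, r was 0.669 (n = 7, exact p = 0.098). After centring within prefixes B and C, r was 0.815 (n = 8, exact p = 0.021, adjusted p = 0.063). Without library A alone, r was 0.846 (n = 8, exact p = 0.013, adjusted p = 0.076). The direction held in each case, but none of these 3 reduced sets kept the adjusted p under 0.05. Ythdf1 did not follow either paralog detectably, with r = -0.134 to Ythdf2 (exact permutation, adjusted p = 0.74) and 0.131 to Ythdf3 (adjusted p = 0.74). The latter was 0.513 within prefixes (n = 8, exact p = 0.23) and 0.310 with upper quartile scaling (n = 9, exact p = 0.42).

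Hnrnpa2b1 and Hnrnpc gave r = 0.872 (exact p = 0.0019, adjusted p = 0.0088) and rho = 0.78 (exact p = 0.017, adjusted p = 0.052) over the 9 clones. Leaving out the 2 clones most distant from the Hnrnpa2b1 median, r was 0.710 (n = 7, exact p = 0.084). Within prefixes B and C, r was 0.721 (n = 8, exact p = 0.017, adjusted p = 0.063), and without library A alone 0.749 (n = 8, exact p = 0.037, adjusted p = 0.11), so that this pair, too, kept its direction with a loss of the call. Fmr1 and Fxr1 gave r = 0.727 (exact p = 0.018, adjusted p = 0.036) and rho = 0.72 (exact p = 0.037, adjusted p = 0.074). Leaving out the 2 clones most distant from the Fmr1 median, A among them, r was 0.373 (n = 7, exact p = 0.41), and within prefixes it was 0.389 (n = 8, exact p = 0.45), so the relation was not detectable in either set. Without library A alone, r was 0.635 (n = 8, exact p = 0.087, adjusted p = 0.17). The adjusted p of this pair also exceeded 0.05 on leaving out any 1 of B1, B3, B4 and C4, while r stayed between 0.635 and 0.812 on leaving out any 1 clone. Ythdc1 and Ythdc2 gave r = 0.412 (exact p = 0.27, adjusted p = 0.41) and rho = 0.20 (exact p = 0.61, adjusted p = 0.77), and r was -0.018 (n = 7, exact p = 0.97) without the 2 farthest clones, 0.545 (n = 8, exact p = 0.19) within prefixes and 0.472 (n = 8, exact p = 0.23) without library A. Over all 45 pairs of the 10 readers, as a description, the median r was 0.167 with 28 pairs above 0. It was 0.301 with 33 pairs above 0 without library A, and 0.389 with 37 above 0 after centring within prefixes. The lowest r over 9 clones, -0.669 for Elavl1 with Fmr1, was 0.461 without library A.

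**Figure D3:**
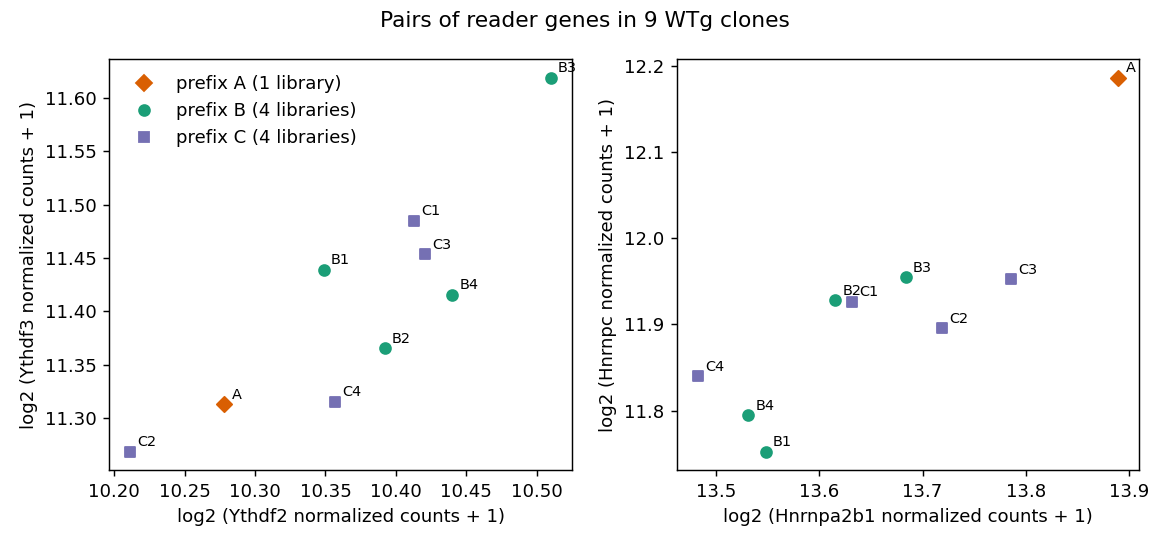
Ythdf3 against Ythdf2 (left) and Hnrnpc against Hnrnpa2b1 (right), each axis as log2(normalized counts + 1), with 1 labelled point per library coloured by column-name prefix. On the left B3 and C2 form the ends of the trend (r = 0.864), and on the right library A lies apart at the upper end (r = 0.872).

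The readers were compared between the prefixes with 4 libraries each, which asks whether the unexplained split of the libraries touches them. No reader differed detectably. By limma on log2(normalized counts + 1), 0.171% of 16962 genes were called at an adjusted p under 0.05 (29 genes, with 3148 at an unadjusted p under 0.05, and 9 to 242 called on leaving out 1 library), and 0 of the 10 readers were called, with 0 at an unadjusted p under 0.05, and 0 were called by voom. Differences, prefix C minus prefix B, ran from -0.09 for Ythdc1 to 0.19 for Fmr1 on the log2 scale, with 95% intervals that reached from -0.30 to 0.38. Fmr1 had the lowest adjusted p by limma (difference 0.19, SE 0.085, adjusted p = 0.28), with means of 1299.7 ± 129.8 in prefix B and 1477 ± 96.3 in prefix C (SD, n = 4 each). Fmr1 is X-linked and the prefix B libraries expressed Xist, and the part of this in the difference was not tested. For 0 of the 10 readers did the prefixes fail to overlap in either direction, whereas all prefix C libraries lay above all prefix B libraries for 4.55% of genes, and below them for 5.74%.

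The readers were next set against Mettl3, the writer that the transgene encodes. The Mettl3 level does not separate reads of the transgene from those of the endogenous gene, so it is not a measure of the transgene alone. Mettl3 was at 2184 normalized counts in A, at 546, 621, 611 and 515 in B1 to B4, and at 468, 490.1, 479.8 and 502 in C1 to C4. Nearly all of its range was thus the distance of library A from the others, and a slope over 9 clones compares that library with the rest. By limma, 2.46% of 16961 genes were associated with log2 Mettl3 (417 genes, 55 with a positive and 362 with a negative slope), and 1 of the 10 readers was called. Fmr1 rose with Mettl3, with a slope of 0.52 log2 units per log2 unit (SE 0.095, limma adjusted p = 0.020).

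The other slopes did not pass the test. Hnrnpc had a slope of 0.14 (SE 0.049, limma adjusted p = 0.19) and Elavl1 one of -0.17 (SE 0.052, limma adjusted p = 0.16), and the remaining 7 readers had slopes with limma adjusted p from 0.44 to 0.99, of which that of Ythdf1, 0.0016, turned to -0.038 after upper quartile scaling. Without library A, 0 of 16961 genes were called by limma (0.00%, with 1775 at an unadjusted p under 0.05), and 0 readers, with 0 at an unadjusted p under 0.05. The slope of Fmr1 was then -0.44 (SE 0.34, limma adjusted p = 0.63), with a 95% interval from -1.22 to 0.33. The association of Fmr1 with Mettl3 therefore rested on library A. It was also lost with voom on the recovered reads (slope 0.52, adjusted p = 0.067) and with the prefix as a covariate (slope 0.26, SE 0.54, limma adjusted p = 1.0), and its adjusted p ran from 0.013 to 1.0 over the alternatives.

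**Figure D4:**
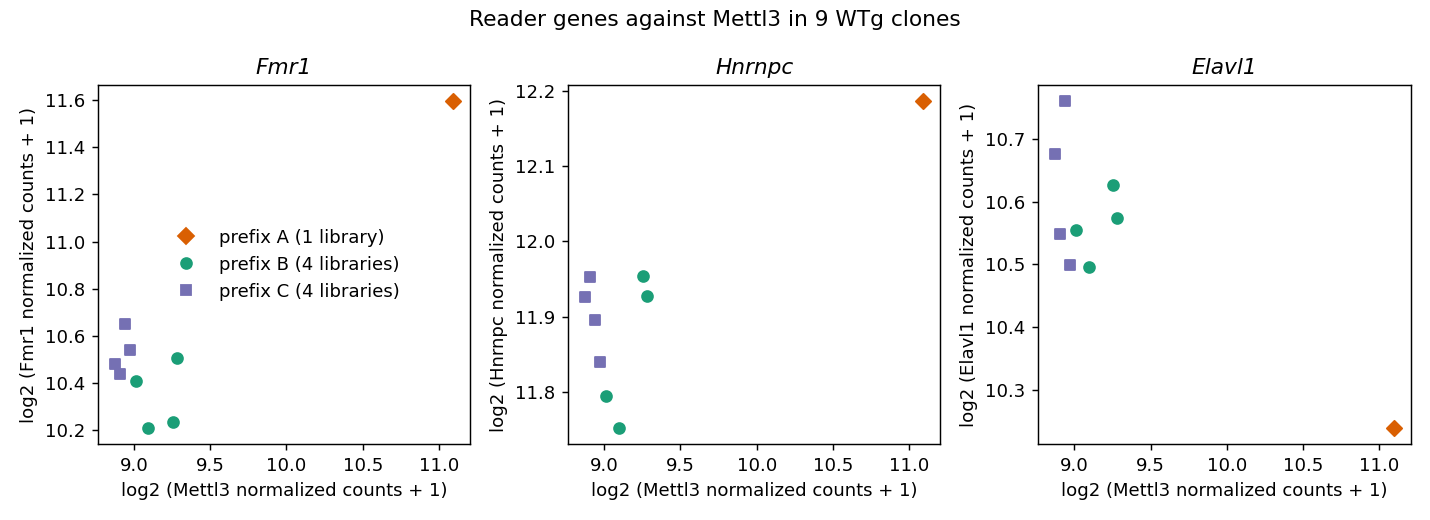
Fmr1, Hnrnpc and Elavl1 (y axes) against Mettl3 (x axis) in the 9 libraries, both as log2(normalized counts + 1), with 1 point per library coloured by column-name prefix. The point of library A lies alone at the right of each panel, at 2184 normalized counts of Mettl3 against 468 to 621 in the others.

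Plk1, the mitotic kinase, was at 685 normalized counts in A, at 299, 525, 396 and 389.9 in B1 to B4, and at 705, 1228, 669 and 512 in C1 to C4. Unlike Mettl3 it was spread over the clones, with C2 as the highest. By limma, 7 of the 7 proliferation genes tested rose with it, 3 of 12 macrophage markers fell and 1 of 14 fibroblast markers rose. Over all genes, 6.55% of 16961 genes were associated with log2 Plk1 (1111 genes, with 4479 at an unadjusted p under 0.05, and 77 to 1576 called on leaving out 1 clone), and 0 of the 10 readers, with 0 at an unadjusted p under 0.05 and 0 called by voom.

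Reader slopes on Plk1 ran from -0.09 for Ythdf3 to 0.31 for Fmr1, with limma adjusted p from 0.30 to 0.89. For Elavl1 the slope was 0.07 (SE 0.083, limma adjusted p = 0.64), with a 95% interval from -0.12 to 0.26, and it was -0.046 when C2 was left out. For Fmr1 it was 0.31 (SE 0.20, limma adjusted p = 0.36), with a 95% interval from -0.13 to 0.76. Without library A, the slope of Fmr1 was 0.20 (SE 0.056, limma adjusted p = 0.064) and that of Elavl1 0.11 (SE 0.046, limma adjusted p = 0.16), both positive with an interval above 0 before adjustment. In that fit 2 of the 10 readers had an unadjusted limma p under 0.05, beside 28.1% of 16961 genes, so such intervals were common. Neither Fmr1 nor Elavl1 passed the threshold over all genes in any alternative, the lowest adjusted p being 0.064 for Fmr1 and 0.16 for Elavl1. The intervals leave room for a change of up to 0.26 log2 units of Elavl1 per log2 unit of Plk1, so that a weak relation is not detectable with 9 clones.

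**Figure D5:**
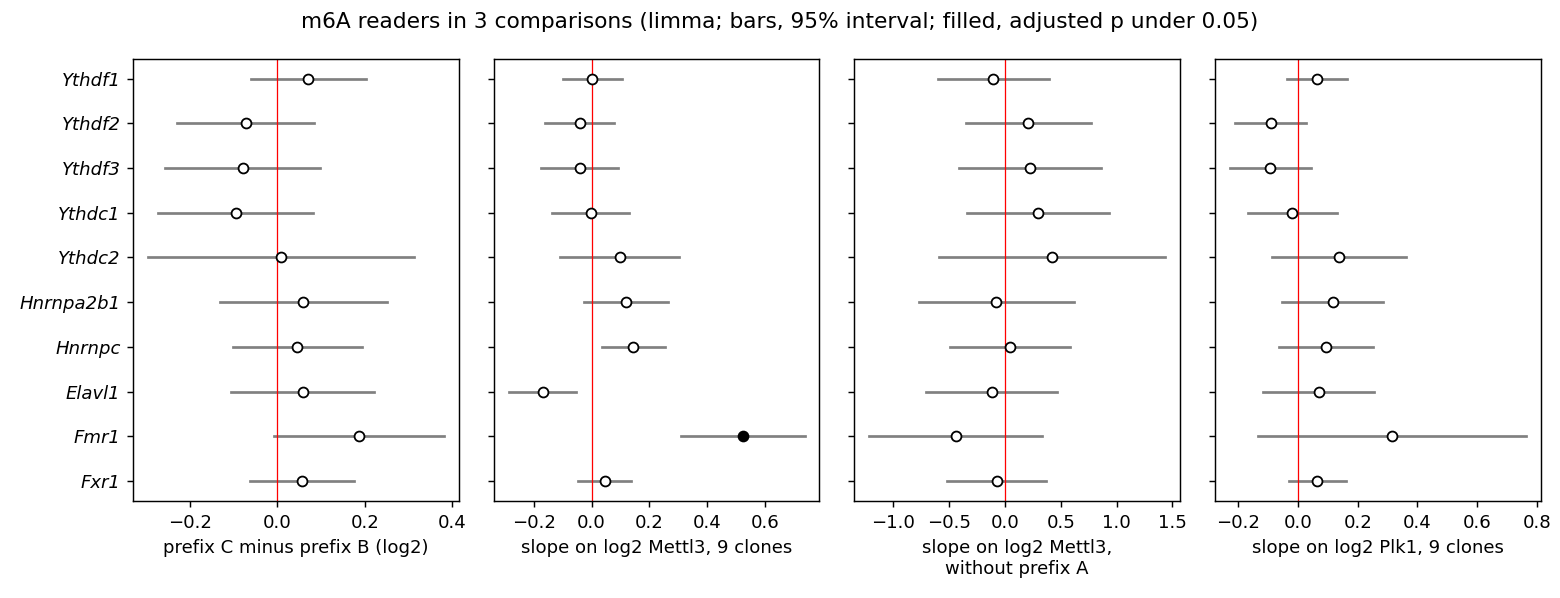
Effect for each of the 10 readers (rows) in the comparison of prefix C with prefix B, in the slopes on log2 Mettl3 over 9 clones and over the 8 without library A, and in the slope on log2 Plk1, all on the log2 scale (x axes, which differ between panels). Circles are limma estimates, bars 95% intervals and filled circles an adjusted p under 0.05. The only filled circle is that of Fmr1 on Mettl3, at 0.52, and it lies at -0.44 without library A.

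The writers and erasers, the other readers and the partners of the readers were described by the same fits. The 11 writers and erasers were tested in the prefix and Plk1 fits, and 10 of them in the Mettl3 fit, where Mettl3 is the predictor. By limma 0 were called in any of the 3 fits, against 0.171%, 2.46% and 6.55% of all genes for prefix, Mettl3 and Plk1. Mettl14, the partner of Mettl3 in the methyltransferase, had a slope of 0.07 on Mettl3 (SE 0.066, limma adjusted p = 0.66). Of the 16 other readers, 15 were listed (Elavl3 was not) and 14 were tested, with 0 called between prefixes and 0 on Mettl3. On Plk1, 1 of the 14 was called, a share close to the 6.55% of all genes. This was Hnrnpa1, a splicing factor related to Hnrnpa2b1, which rose with Plk1 (slope 0.54, SE 0.089, limma adjusted p = 0.014). Its levels were 8228 normalized counts in A, 4679, 6748, 4827 and 4631 in B1 to B4, and 6874, 8978, 6169.6 and 5284 in C1 to C4, with the call kept without library A (slope 0.50, limma adjusted p = 0.0095) and lost with the prefix as a covariate (slope 0.62, limma adjusted p = 0.069). Reads of Hnrnpa1 are uncertain, since the gene has many processed copies. The median slope on Plk1 was 0.12 over the 14 other readers and 0.067 over the 10 readers of the main list, beside -0.023 over all genes tested.

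Of the 17 partners, 16 were listed (Meioc was not) and tested, and 0 were called between prefixes. Upf1, the helicase of nonsense-mediated decay that acts with YTHDF2 in one route of decay, fell with Mettl3 (slope -0.30, SE 0.061, limma adjusted p = 0.037). It was at 1667 normalized counts in A, at 2547, 2572, 2824 and 2669 in B1 to B4, and at 2564, 2399, 2931 and 2444 in C1 to C4. Like that of Fmr1, this slope rested on library A, without which it was 0.10 (limma adjusted p = 0.89). The call was also lost with voom (slope -0.30, adjusted p = 0.11) and with the prefix as a covariate (limma slope -0.036). On Mettl3, 1 of the 16 partners was thus called in the main fit, beside 2.46% of all genes. On Plk1, too, 1 of the 16 was called, close to the 6.55% of all genes. This was G3bp1, a stress granule protein, which rose with Plk1 (slope 0.24, SE 0.060, limma adjusted p = 0.048), with 4742 in A, 3404, 3878, 3832 and 3586 in B1 to B4, and 4183, 4773, 3727 and 3887 normalized counts in C1 to C4. The call was lost with the prefix as a covariate (slope 0.25, limma adjusted p = 0.23) and with voom (slope 0.24, adjusted p = 0.054), while the slope stayed about as large.

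The genes whose pattern over the 9 clones was most like that of each reader were sought by Pearson's r of log2 values among the 12301 genes whose mean reached 50 normalized counts. These values are descriptions, since the genes share libraries and depth and the best of many correlations is high by selection. For Fmr1 the ribosomal protein genes Rpl26 (r = 0.988) and Rpl35 (0.987) were among the closest, and 152 genes exceeded 0.9. Without library A, Rpl26 was at 0.891 and Rpl35 at 0.928. Ribosomal protein genes have near-identical processed copies, so their reads are uncertain. For Elavl1 the closest were Ube4b, a ubiquitin chain factor (0.984), and Gxylt1 (0.981), for Hnrnpc the RNA-binding protein gene Ssb (0.962), and for Hnrnpa2b1 Tmem161b (0.974). For Ythdf2 the closest was Pgd of the pentose phosphate pathway (0.966), for Ythdf3 Treml4, a myeloid receptor (0.958), and for Fxr1 Ggnbp2 (0.960). The likeness was lower for Ythdf1, with Pdhx (0.931), for Ythdc1, with Mdc1 of the DNA damage response (0.944), and for Ythdc2, with the pseudogene Ube2n-ps1 (0.937).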

How the data were processed

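Bulk RNA of 9 WTg clones was sequenced. The submitters' notes name FastQC 0.11.9, STAR 2.7.10, RSEM 1.3.3 and GRCm38. The authors deposited log2 values for 18049 genes, which are scaled read counts plus an offset of 4. The log2 was undone and the offset subtracted to give normalized counts, and reads were recovered from the steps of low values (100% whole under 1000 reads, within 0.1). Identifiers matched gene names for 18033. The 6 columns of other studies were not used. Precision intervals and floors cover counting error only.

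Limma 3.58.1 (R 4.3.3; lmFit, eBayes with a trend) was run on log2(normalized counts + 1) over genes with a mean of at least 1, in 3 fits, with Benjamini-Hochberg adjustment over all genes. Fold changes on this scale understate those of low genes. Correlations used exact permutation tests (Python 3.11.15, scipy 1.17.1). Scripts were tested on simulated data. Alternatives were pseudocount 0.1, the deposited log2 values, upper quartile scaling, filters, no trend, voom, the prefix as a covariate and leaving out each clone. The members and lists were chosen with earlier results of these data known. Named genes are the 10 readers, Mettl3, Plk1, the genes most like each reader and, of each list, the 2 with the lowest p among positive and among negative effects, of which mainly those called are printed. Fxr2 and the Igf2bp genes were named after their values were seen. The 2 closest libraries differed by more than sampling noise (chi-square per degree of freedom 24.1), so all 9 were counted as separate.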

Additional observations from a re-analysis of the deposited data

Results flagged for a closer look

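Of 14 values examined, 3 had a single sample far from the others by Dixon's criterion at 95%. The nominal rate is about 1 in 20, or 0.7 in all, but the share of all genes that this rule flags was not computed. All 3 were in library A, which was the highest library for 19.9% of genes and the lowest for 20.4%. These shares count extreme positions and not flags, so whether the 3 flags are an excess was not tested. For Fmr1 the gap of library A to the next sample was 0.778 of the whole range, at 3092 normalized counts against 1183 to 1606. For the ratio of Fmr1 to Fxr1 it was 0.775, at 1.36 against 0.571 to 0.749, and this value is not independent of the first. For Hnrnpc it was 0.572, at 4659 normalized counts against 3449.6 to 3968. Upward shifts in A of the size of that of Hnrnpc or more were seen for 22.3% of genes, and of that of Fmr1 for 3.43%. Library A also had the highest Mettl3 level, the lowest depth and the only column name of its prefix, and the part of each in these values was not tested.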

How the results depend on the processing

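No paired analysis was possible because the 9 clones form 1 group. Leaving out 1 of 9 clones can shift a mean by only a fraction of the SD, whatever the values. The stability of mean levels and paralog ratios can therefore not be judged from these shifts. Without library A, the mean of Fmr1 fell from 1578 to 1388 normalized counts, and its CV from 37.0% to 10.2%. The mean ratio of Fmr1 to Fxr1 fell from 0.732 to 0.654. Genes called between prefixes numbered 17 without a trend and 9 to 242 on leaving out 1 library (9 without B1, 13 without B2 or C2, 11 without B3, 16 without B4, 242 without C3 and 10 without C4), with 0 readers called throughout. On Mettl3, genes called were 656 with a pseudocount of 0.1, 238 with a filter at a mean of 50, 69 with voom, and 0 with the prefix as a covariate, with or without library A. Leaving out 1 clone gave 0 to 517 genes and 0 to 1 readers, the 0 being without A, and voom and the covariate also gave 0 readers. On Plk1, genes called were 485 without a trend, 95 with the prefix as a covariate, 93 with it and without A, and 77 to 1576 on leaving out 1 clone (131 without B1, 499 without B2, 365 without B3, 522 without B4, 489 without C1 and 77 without C2). The cause was not tested.

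Slopes on Mettl3 turned to -0.038 for Ythdf1 with upper quartile scaling, and with the prefix as a covariate to 0.017 for Ythdf2, 0.011 for Ythdf3, 0.085 for Ythdc1 and 0.13 for Elavl1. On leaving out 1 clone they ran from -0.10 to 0.013 for Ythdf1, -0.059 to 0.21 for Ythdf2, -0.055 to 0.23 for Ythdf3, -0.019 to 0.30 for Ythdc1, -0.079 to 0.14 for Hnrnpa2b1, -0.44 to 0.55 for Fmr1 and -0.075 to 0.054 for Fxr1. Slopes on Plk1 turned to 0.11 for Ythdc1 with the covariate, and ran from -0.089 to 0.012 for Ythdc1 and -0.046 to 0.11 for Elavl1 on leaving out 1 clone. The prefix difference of Ythdc2 ran from -0.068 to 0.11.

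For the relations, r without the 2 farthest clones was 0.669 for Ythdf2 with Ythdf3, 0.710 for Hnrnpa2b1 with Hnrnpc, 0.373 for Fmr1 with Fxr1 and -0.018 for Ythdc1 with Ythdc2. Centred within prefixes it was 0.815, 0.721 and 0.389 for the first 3 pairs and 0.189 for Ythdf1 with Ythdf2, and with upper quartile scaling 0.158 for the latter and 0.409 for Fmr1 with Fxr1. Leaving out 1 clone gave -0.42 to 0.16 for Ythdf1 with Ythdf2, -0.17 to 0.37 for Ythdf1 with Ythdf3, 0.799 to 0.892 for Ythdf2 with Ythdf3, 0.749 to 0.901 for Hnrnpa2b1 with Hnrnpc and 0.635 to 0.812 for Fmr1 with Fxr1. At these depths every reader lay far above the floor. Counting error alone would still give a CV of 3.12% for Ythdf1, beside 4.31% observed, and of 3.15% for Fmr1, beside 37.0%. The parts of depth and of the number of clones in the precision were not separated.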

Other observations

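The Igf2bp family, readers that stabilise methylated mRNA, varied more between clones than the 10 readers described above. Igf2bp2 was at 1722 normalized counts in A, at 438, 833, 496 and 529.9 in B1 to B4, and at 1089, 1038, 527 and 572 in C1 to C4. Igf2bp3 was at 39.4 in A, at 89.1, 363, 86.8 and 119.9 in B1 to B4, and at 298, 178, 39.2 and 288 normalized counts in C1 to C4. Igf2bp1 was low throughout, from 1.42 to 62.4 normalized counts, with B1, B2 and C3 at or near the floor. Libraries of the same prefix thus differed several-fold in Igf2bp1 and Igf2bp3, and by less in Igf2bp2. None of the 3 genes was called in any of the 3 limma fits.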
